A study of Homo sapiens with 2 samples.

Results

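The genes described here are 37 members of 3 DNA repair pathways that remove a damaged or mispaired base and fill the gap, in A549 cells with and without added plakophilin 2 (PKP2). They were chosen by name, by matching the Entrez ID of each row to the symbols of 20 base excision repair genes, 11 nucleotide excision repair genes and 6 mismatch repair genes. All 37 were found among the 16399 genes listed. A549 is a long-established line from a human lung adenocarcinoma, and PKP2 is a plaque protein of desmosomes, the spot junctions between epithelial cells. One group carried the empty vector and the other carried SFB-tagged PKP2, both at passage 5 in medium with serum, and each group was sequenced as 1 library of total RNA. No difference below therefore has a replicate check, no p-value is given, and every comparison is between these 2 libraries rather than between the conditions.

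Base excision repair starts with a DNA glycosylase that cuts a single altered base from its sugar. An endonuclease then nicks the bare site, a polymerase fills it, and a ligase seals the strand on the XRCC1 scaffold. Nucleotide excision repair removes a short stretch of strand around a bulky lesion such as an ultraviolet photoproduct or a tobacco-smoke adduct, which makes it a main defence of the airway epithelium. Mismatch repair follows the replication fork, where MutS complexes read mispairs, MutL complexes nick the new strand and EXO1 degrades it.

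The libraries held 16996976 (vector) and 16808842 (PKP2) estimated counts, and levels are given as counts per 1000000 of that total (CPM). PKP2 itself stood at 27.3 CPM with vector and 268 CPM with PKP2. The 5 keratin and E-cadherin markers of epithelium summed to 11650 and 11930 CPM. Of these, KRT8, KRT7 and KRT19 were higher with PKP2. KRT18, at 3875 and 3849 CPM, and the E-cadherin gene CDH1, at 63.2 and 55.0 CPM, were lower. Of the other cell types, 2 of 4 leukocyte markers were matched, with sums of 3.77 and 3.57 CPM, 2 of 3 endothelial markers, at 0.176 and 0.773 CPM, and 3 of 4 fibroblast markers, at 8.71 and 10.6 CPM. The leukocyte sums were mostly CD14, at 3.35 and 3.27 CPM, and the fibroblast sums mostly COL1A1, at 8.12 and 10.35 CPM. COL3A1 and PDGFRA lay below 1 CPM in both libraries and were lower with PKP2. In bulk RNA a change in the number of cells of one kind and a change in RNA per cell cannot be told apart. Values are given for the vector library first and the PKP2 library after it, also written as with vector and with PKP2. Each ratio is the CPM with PKP2 over the CPM with vector, with an exact 95% Clopper-Pearson interval that covers counting error only. A difference is that of log2(CPM + 1), with PKP2 minus with vector.

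No excision or mismatch repair gene lay far apart between the libraries. None of the 37 reached 1.5-fold in either direction, where 0.733% of 12820 expressed genes were at least 1.5-fold higher and 0.788% at least 1.5-fold lower. At 1.2-fold, SMUG1 and XPA were higher, against a background of 8.7%, and ERCC4, ERCC6 and MSH3 were lower, against 11.0%. The interval of the ratio lay above 1 for 5 members (13.5%), against 16.3% of expressed genes, and below 1 for 8 members (21.6%), against 19.8%. These shares are near the background. The members' median difference was 0.03, that of all expressed genes 0.00, and all 37 fell inside the central 95% of expressed genes, from -0.44 to 0.41. From counting error alone the interval reached 1.04-fold to each side for RAD23B, the member with the most counts, and 1.396-fold for NEIL1, with the fewest. Variation between libraries of one group was not measured and is not in these widths.

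**Figure D1:**
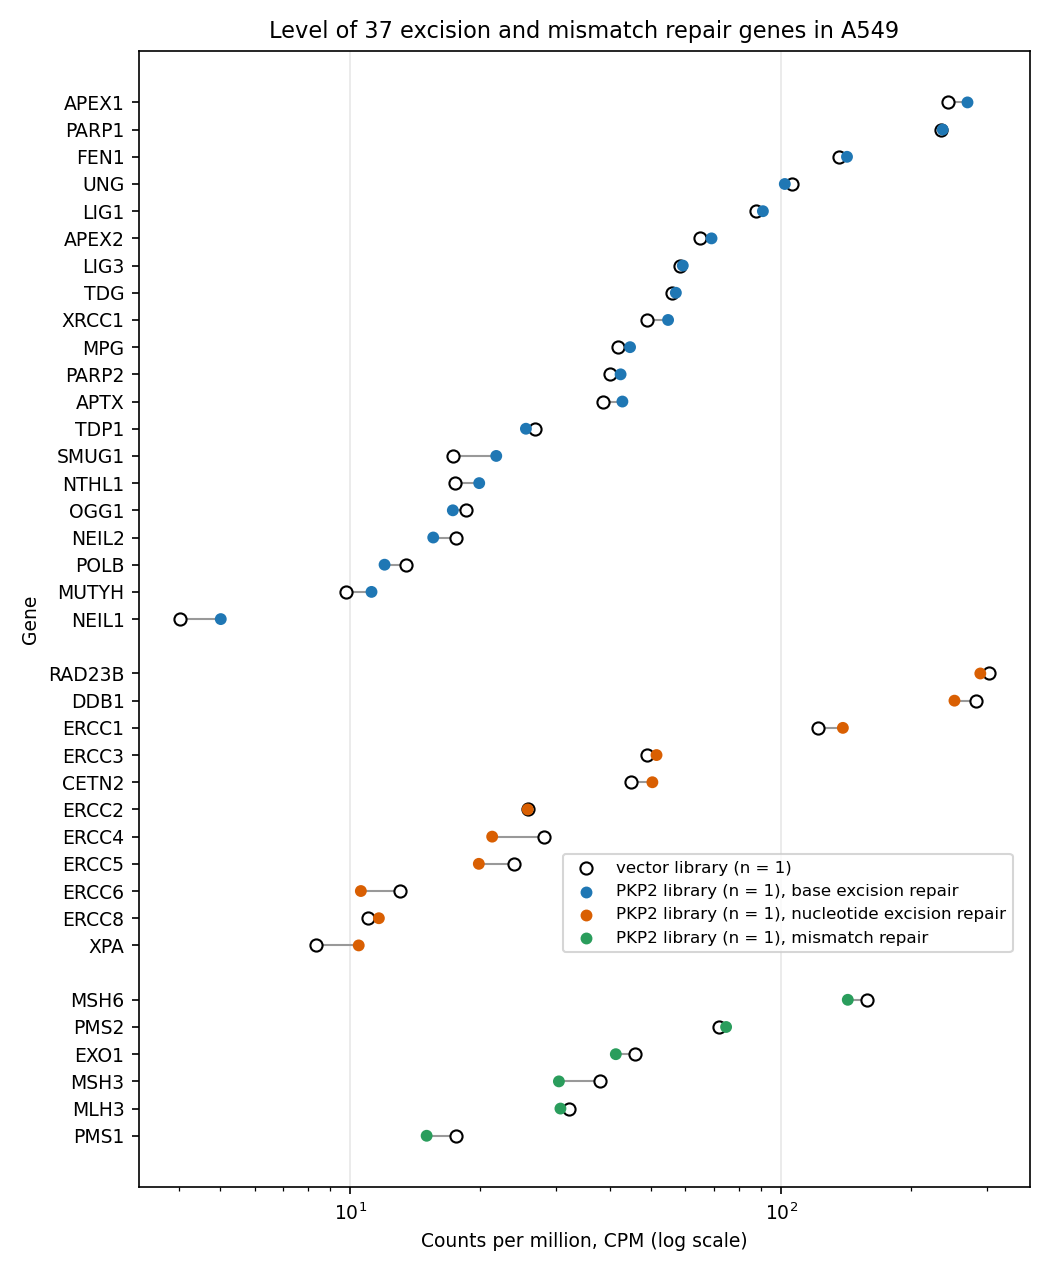
Level of each of the 37 genes in CPM (log axis), with the vector library as open circles and the PKP2 library as filled circles, 1 library each, grouped by pathway. Values ran from 4.02 CPM for NEIL1 to 304.1 CPM for RAD23B with vector, and in each pathway the same gene was the highest and the same the lowest in both libraries.

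A gene counted as expressed from 1 CPM in either library, and all members passed, so none was lost to the filter on low values. Per kilobase of the longest annotated transcript, APEX1 stood highest, at 135 CPM per kb with vector and 150 with PKP2. RAD23B followed at 73.8 and 70.4, then DDB1 at 62.9 and 56.0. FEN1 at 59.3 and 61.9 and PARP1 at 59.3 and 59.9 came next and were level with each other. ERCC6, at 1.19 and 0.960 CPM per kb, and NEIL1, at 1.07 and 1.33, were the lowest, and they changed places between the libraries. The members thus covered a range of levels that was far wider than any difference between the libraries.

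**Figure D2:**
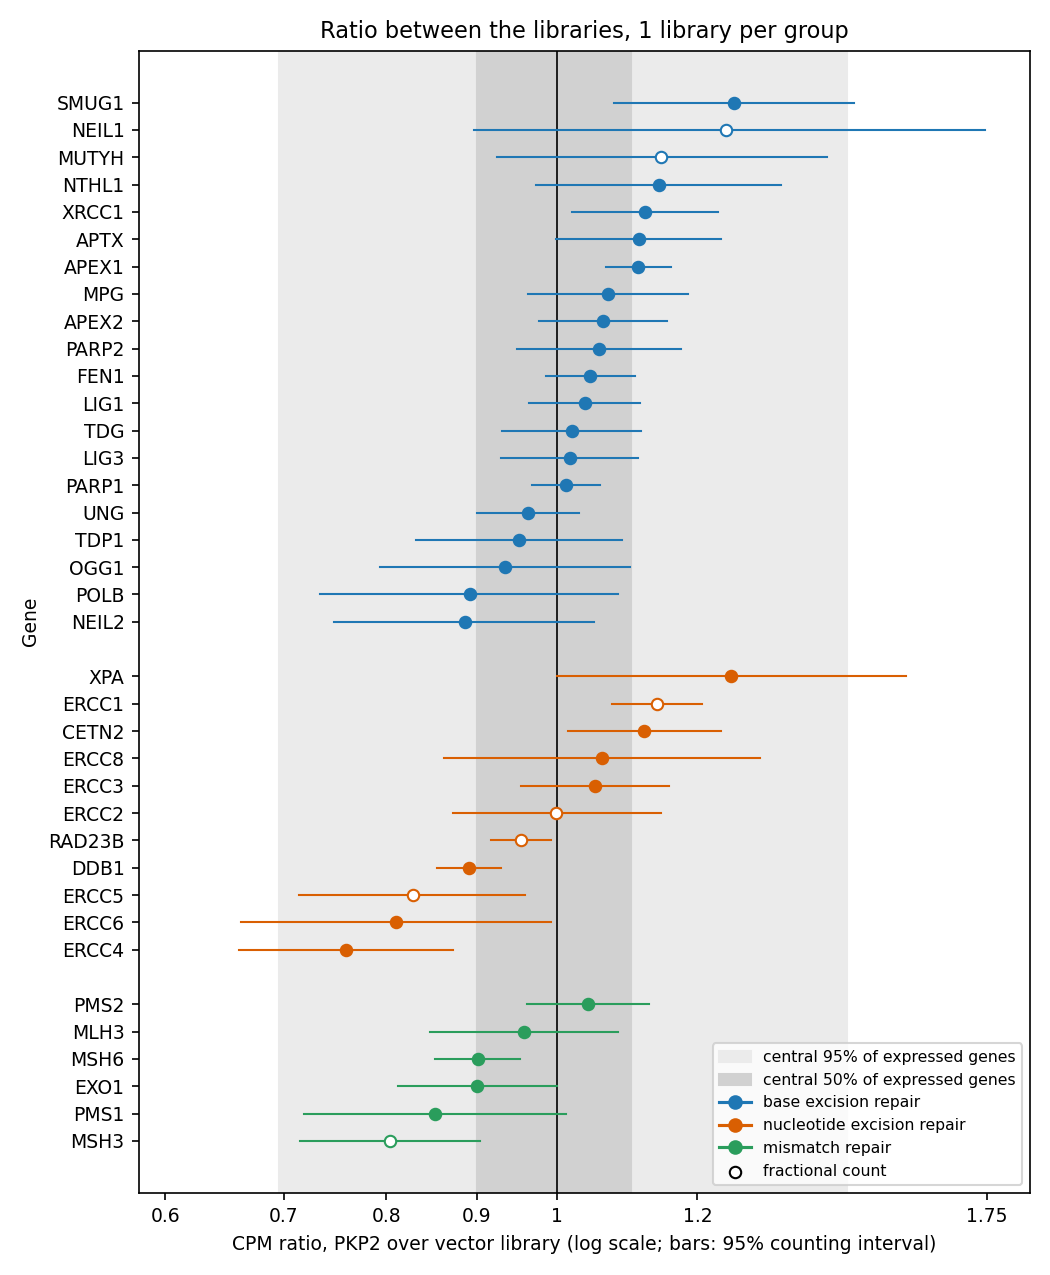
CPM ratio of the PKP2 library over the vector library for each gene (log axis), with bars for the exact 95% counting interval and grey bands for the central 50% and 95% of the ratios of expressed genes; open circles mark fractional counts. All 37 points lie inside the wider band. Of the base excision genes 15 of 20 lie on the higher side, and of the mismatch repair genes 5 of 6 on the lower side. Of all expressed genes 49.7% were higher and 50.3% lower by any amount. With the trend on transcript length and GC content described below removed, 12 of 20 base excision genes were higher and 3 of 6 mismatch repair genes lower. The median of all expressed genes was then -0.01, and their shares by any amount were not computed in that setting.

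Among the 9 DNA glycosylases, the 3 that cut uracil or thymine from DNA lay on both sides of 1. SMUG1 (Entrez ID 23583, chromosome 12, 54121277 to 54189008, minus strand, GRCh38), which removes uracil and hydroxymethyluracil, had 295 counts (17.4 CPM) with vector and 367 (21.8 CPM) with PKP2. It was the 1 glycosylase with an interval above 1, at 1.26-fold (1.08 to 1.47), and the member with the largest positive difference, 0.31. UNG, the main uracil glycosylase of replicating cells, stood at 106 and 102 CPM, a ratio of 0.962 (0.900 to 1.03). TDG, which acts on thymine or uracil opposite guanine, stood at 56.0 and 57.0 CPM (0.930 to 1.12). With PKP2 the ratio of SMUG1 to UNG, a pair chosen after the values were seen, was 1.31-fold higher (1.11 to 1.55). SMUG1 was still low beside UNG, at 0.184 of it per kilobase against 0.140.

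The glycosylases for oxidised bases went both ways, all with intervals that include 1. OGG1, which removes oxidised guanine, stood at 18.5 CPM with vector and 17.3 with PKP2 (0.794 to 1.10). MUTYH, which takes adenine from opposite oxidised guanine, stood at 9.80 and 11.2 CPM (0.925 to 1.42), from fractional counts. NTHL1, for oxidised pyrimidines, stood at 17.5 and 19.9 CPM, a ratio of 1.14 (0.973 to 1.34). The related NEIL1, at 4.02 and 5.01 CPM, had 68.37 and 84.22 estimated counts, and its ratio of 1.25 had the widest interval of all members, 0.897 to 1.75. NEIL2 lay on the other side, at 17.6 and 15.6 CPM and a ratio of 0.886 (0.748 to 1.05). MPG, the glycosylase for alkylated purines, stood at 41.8 and 44.6 CPM (0.963 to 1.19). At these depths no difference was detectable for any of the 6.

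The enzymes that act after the glycosylase were led by APEX1, which nicks the strand at the bare site. APEX1 (Entrez ID 328, chromosome 14, 20455191 to 20457772, plus strand) had 4142 counts (243.7 CPM) with vector and 4550 (270.7 CPM) with PKP2. Its ratio of 1.11 (1.07 to 1.16) had the narrowest interval in the pathway and lay above 1. APEX2, its weaker paralog, stood at 65.0 and 69.0 CPM (0.976 to 1.15). POLB, the polymerase that fills the single-base gap, was on the other side at 13.5 and 12.02 CPM, with a ratio of 0.892 (0.735 to 1.08). FEN1, the flap endonuclease of the long-patch route and of lagging-strand synthesis, stood at 136 and 142 CPM, with 1.04 as the ratio (0.986 to 1.11). Of the enzymes that clean blocked ends, APTX, which removes stalled adenylate, stood at 38.5 and 42.8 CPM, and its interval of 0.999 to 1.24 just included 1. TDP1, which frees trapped topoisomerase, stood at 26.9 and 25.6 CPM (0.832 to 1.09).

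Of the break sensors and the scaffold, XRCC1 was the 1 with an interval above 1. XRCC1 (Entrez ID 7515, chromosome 19, 43543040 to 43580473, minus strand) stood at 48.8 CPM (829 counts) with vector and 54.7 CPM (919 counts) with PKP2, 1.12-fold higher (1.02 to 1.23). PARP1, which binds nicks and marks them with poly(ADP-ribose), had 3986 and 3985 counts, 234.5 and 237.1 CPM. Its ratio of 1.01 had an interval of 0.967 to 1.06, which includes 1. PARP2 stood at 40.2 and 42.4 CPM (0.949 to 1.17).

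The ligases of these pathways were close to level. LIG1 (Entrez ID 3978, chromosome 19, 48115445 to 48170603, minus strand), which joins Okazaki fragments and closes long patches, had 1488 counts (87.5 CPM) with vector and 1525 (90.7 CPM) with PKP2. The ratio was 1.04 (0.964 to 1.11). LIG3 (Entrez ID 3980, chromosome 17, 34980494 to 35009743, plus strand), the partner of XRCC1 and the ligase of mitochondria, had 989 and 994 counts, 58.2 and 59.1 CPM, a ratio of 1.02 (0.930 to 1.11). The end-joining ligase gene LIG4, which is no member, stood at 13.4 and 21.8 CPM. Set against the other ligases, the ratio of LIG4 to LIG1 was 1.57-fold higher with PKP2 (1.31 to 1.88) and that of LIG4 to LIG3 1.60-fold higher (1.33 to 1.94). LIG4 nevertheless remained the lowest of the 3 per kilobase, at 0.235 of LIG1 in the PKP2 library. The ratio of XRCC1 to LIG3, 1.10-fold higher, had an interval of 0.970 to 1.25, and it turned to -0.09 from 0.14 on the log2 scale once the length and GC trend was taken out. These ratios belong to 9 that were chosen after the values were seen, with intervals from the counting variance on the log scale. Those of SMUG1 to UNG, ERCC1 to ERCC4 and MSH6 to MSH3 are also among the 9. The rest were LIG1 to LIG3, 1.02-fold higher (0.910 to 1.14), APEX1 to POLB, 1.245-fold higher (1.03 to 1.51), and NEIL1 to NEIL2, 1.41-fold higher (0.981 to 2.01).

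In nucleotide excision repair the recognition genes split. DDB1 (Entrez ID 1642, chromosome 11, 61299451 to 61342596, minus strand), the adaptor of the ubiquitin ligase that flags photoproducts, had 4816 counts (283.3 CPM) with vector and 4244 (252.5 CPM) with PKP2. It was 1.12-fold lower (1.08 to 1.17). RAD23B, which stabilises the lesion sensor, stood at 304.1 and 289.9 CPM, with a fractional count in the PKP2 library, and was 1.05-fold lower (1.01 to 1.09). CETN2, a small calcium-binding partner in the same sensor complex and a centriole protein, was on the other side at 44.9 and 50.3 CPM, with a ratio of 1.12 (1.01 to 1.24).

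The genes that start repair at a stalled RNA polymerase were among the lowest of the set per kilobase. ERCC6, the translocase mutated in Cockayne syndrome B, stood at 13.1 CPM (222 counts) with vector and 10.6 CPM (178 counts) with PKP2, 1.23-fold lower (1.01 to 1.51). ERCC8, which belongs to its ubiquitin ligase, stood at 11.0 and 11.7 CPM (0.863 to 1.30). The helicases of TFIIH, which open the helix, were level. ERCC2 stood at 25.9 and 25.8 CPM (0.873 to 1.14) and ERCC3 at 49.0 and 51.4 CPM (0.954 to 1.16). XPA, which checks the lesion and positions the nucleases, had 142 counts (8.35 CPM) and 176 counts (10.5 CPM). Its ratio of 1.25 was the second highest of all members, but the interval of 0.999 to 1.58 just included 1, and lay above 1 with the median log ratio of all expressed genes set to 0.

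The subunits of the nuclease that cuts on one side of the lesion lay on opposite sides. ERCC4 (Entrez ID 2072, chromosome 16, 13920157 to 13952345, plus strand) encodes the catalytic subunit, also called XPF. It had 478 counts (28.1 CPM) with vector and 359 (21.4 CPM) with PKP2, 1.32-fold lower (1.15 to 1.51). Its difference of -0.38 was the largest in size among the 37, at percentile 4.36 of expressed genes. ERCC1 (Entrez ID 2067, chromosome 19, 45407333 to 45478828, minus strand), its DNA-binding partner, stood at 122.1 CPM (2075.77 estimated counts) and 139.1 CPM (2337.38), 1.14-fold higher (1.07 to 1.21). ERCC1 exceeded ERCC4 7.67-fold per kilobase in the vector library and 11.5-fold in the PKP2 library. The ratio was thus 1.499-fold higher (1.29 to 1.74), or 0.58 on the log2 scale, and 0.37 once the length and GC trend was taken out. This pair, too, was chosen after the values were seen. The ERCC1 counts were fractional. Of the annotated exonic bases, 1593 of 5576 in ERCC1 and 2174 of 8460 in ERCC4 overlap an exon on the other strand.

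ERCC5, whose product (XPG) cuts on the other side of the lesion, was read from 2 gene records that share most of their sequence. The upstream neighbour BIVM can be transcribed through into ERCC5, and that readthrough product has its own record, BIVM-ERCC5. The junctions below are shown because they mark where the transcripts of the records part. Of the main ERCC5 transcript, 3564 bases (70.1%) are also in the readthrough transcript, 13 whole exons among them. Each line gives 40 bases of coding sequence before the join in lower case, and in capitals the first 40 bases of the shared exon (chromosome 13, 102852118 to 102852157, plus strand, GENCODE release 29 on GRCh38).
ERCC5: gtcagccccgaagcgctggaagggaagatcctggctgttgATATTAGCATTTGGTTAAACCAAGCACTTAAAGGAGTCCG
BIVM-ERCC5: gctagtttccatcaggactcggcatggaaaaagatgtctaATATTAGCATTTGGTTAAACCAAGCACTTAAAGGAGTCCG
The lower-case part ends at base 102846354 in ERCC5, where its first exon stops, and at base 102839803 in BIVM-ERCC5, in an exon of BIVM. From the capitals on, the printed sequences are the same.

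The ERCC5 record (Entrez ID 2073) alone had 408.24 estimated counts (24.0 CPM) with vector and 334.33 (19.9 CPM) with PKP2, 1.21-fold lower (1.04 to 1.40). The BIVM-ERCC5 record had 112.57 (6.62 CPM) and 221.24 (13.2 CPM), 1.99-fold higher (1.57 to 2.503). Summed, they held 520.81 and 555.57 counts, 30.6 and 33.1 CPM, and the ratio was 1.08 with an interval of 0.956 to 1.22, which includes 1. The ERCC5 record alone thus had an interval below 1, and its sum with the readthrough record had no detectable difference. The share of the summed counts placed on the readthrough record was 21.6% (18.2 to 25.5, exact Clopper-Pearson 95%) in the vector library and 39.8% (35.7 to 44.0) in the PKP2 library. BIVM itself stood at 18.8 and 13.5 CPM, and all 3 records together gave a ratio of 0.942 (0.853 to 1.04). Whether transcripts or only the division of shared reads differed was not tested. The sums were formed after the values were seen.

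**Figure D3:**
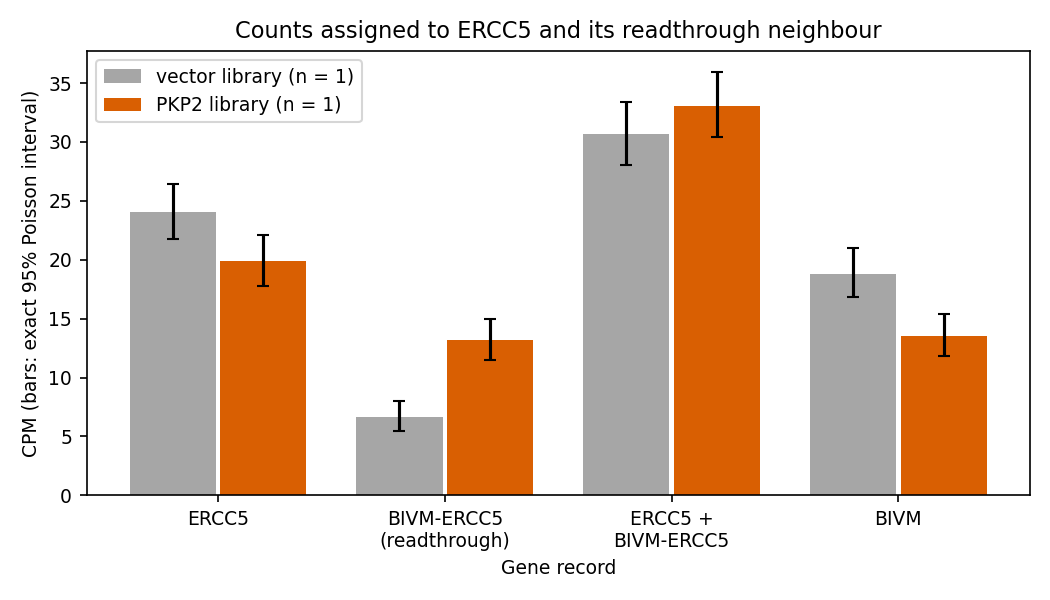
CPM of the ERCC5 record, the readthrough record BIVM-ERCC5, the sum of both, and BIVM, in the vector (grey) and PKP2 (orange) libraries, 1 each, with exact 95% Poisson intervals as bars. ERCC5 is lower and BIVM-ERCC5 higher in the PKP2 library, while their sum stands at 30.6 against 33.1 CPM.

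Mismatch repair genes were mostly lower in the PKP2 library, 5 of 6 by any amount and 3 of 6 with an interval below 1. Of all expressed genes, 50.3% were lower by any amount and 19.8% had an interval below 1. With the trend on transcript length and GC content described below removed, 3 of the 6 were lower and 1 interval lay below. In that setting 15.3% of expressed genes had an interval below, and their share lower by any amount was not computed. MSH3 (Entrez ID 4437, chromosome 5, 80654648 to 80876460, plus strand), the MutS subunit that reads larger insertion and deletion loops, had 644.60 estimated counts (37.9 CPM) with vector and 512.91 (30.5 CPM) with PKP2. It was 1.24-fold lower (1.11 to 1.399). Its count was fractional. MSH6 (Entrez ID 2956, chromosome 2, 47695530 to 47810101, plus strand), the subunit for single mispairs and small loops, stood at 158.5 and 142.8 CPM, 1.11-fold lower (1.05 to 1.17). The ratio of MSH6 to MSH3, which compete for one MutS partner, was 1.12-fold higher, with an interval of 0.985 to 1.27. EXO1, the exonuclease, stood at 45.9 and 41.4 CPM, and its interval of 0.812 to 0.9993 ended just below 1. With the median log ratio of all expressed genes set to 0 that interval included 1.

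The MutL genes had no detectable difference. PMS1, a MutL subunit without a settled repair role, had 300 counts (17.7 CPM) with vector and 253 (15.1 CPM) with PKP2. Its ratio of 0.853 had an interval of 0.719 to 1.01. MLH3, which also serves meiotic crossovers, stood at 32.1 and 30.8 CPM (0.847 to 1.08). PMS2, the subunit with the nicking activity, stood at 71.7 and 74.5 CPM, the 1 member of the pathway that was higher, by 1.04-fold (0.961 to 1.13). PMS2 has near-identical pseudogene copies, so its count is uncertain.

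Pathway by pathway, the sums moved by a few percent. The 20 base excision genes summed to 1281 CPM with vector and 1341 with PKP2, a ratio of 1.05 (1.03 to 1.07). Their median difference was 0.07, and 15 were higher, against 49.7% of all expressed genes. The intervals of 3 lay above 1 (15.0%, against 16.3% of expressed genes) and those of none below (against 19.8%). The 11 nucleotide excision genes summed to 913.8 and 882.9 CPM, a ratio of 0.966 (0.945 to 0.988). Their median difference was 0.00, with 2 intervals above 1 (18.2%) and 5 below (45.5%), beside the same 16.3% and 19.8%. The damage recognition genes, RAD23B and DDB1 among them, held 632.3 and 592.7 CPM of these sums, a ratio of 0.937 (0.912 to 0.963). The summed ratio was 1.05 (0.980 to 1.14) for unwinding and verification and 1.035 (0.983 to 1.09) for incision. For transcription-coupled recognition it was 0.925 (0.8015 to 1.07). The 6 mismatch repair genes summed to 363.7 and 335.1 CPM, a ratio of 0.921 (0.888 to 0.955), with a median difference of -0.15. Without the member with the highest CPM, the ratio was 1.03 in base excision, 0.973 in nucleotide excision and 0.9365 in mismatch repair. In nucleotide excision the gene left out was RAD23B, so DDB1 stayed in. DDB1 alone went from 283.3 to 252.5 CPM, beside 913.8 and 882.9 CPM for the sum of all 11. The ratio without DDB1 was not computed. Over all 37 the sum was 2559 CPM in each library, a ratio of 1.00 (0.987 to 1.01). These intervals hold counting error alone, and whether the pathways differ from each other cannot be tested with 1 library a group.

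The direction of a member went with the length of its transcript, as it did across the transcriptome. Of the 12 members with the shortest transcripts (1067 to 2607 nucleotides) 10 were higher in the PKP2 library, and of the 12 with the longest (4092 to 11026) 10 were lower. Among all expressed genes in those ranges, 74.0% and 31.2% were higher. Across the 37 members Spearman's rho with the difference was -0.588 for length and 0.535 for GC content, beside -0.464 and 0.371 across 12681 expressed genes, which share the same pair of libraries. The pathways differ in these properties, with a median transcript of 2639 nucleotides and 52.2% GC in base excision, 4119 and 43.2% in nucleotide excision, and 3782 and 41.8% in mismatch repair.

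When an additive trend on length and GC was removed, the medians moved towards 0 in base excision (0.02) and mismatch repair (-0.05). The median of all expressed genes was then -0.01, and their share higher by any amount was not computed in that setting. Of the 20 base excision genes 12 were then higher, with 2 intervals above and 2 below. Of the 11 nucleotide excision genes 5 were higher, with 1 interval above and 2 below. Over all 37 members, intervals on the side above the trend then numbered 3, with SMUG1 and ERCC1 still among them, and 11.5% of expressed genes lay there. Below the trend there were 5, with DDB1, ERCC4 and MSH3 still among them, against 15.3%. APEX1, XRCC1 and CETN2 no longer stood above, nor RAD23B, ERCC5, ERCC6, MSH6 and EXO1 below, and 5 members changed sign. MSH6 turned from -0.15 to 0.01, MLH3 from -0.06 to 0.10, NTHL1 from 0.18 to -0.05, MPG from 0.09 to -0.14 and FEN1 from 0.06 to -0.03. SMUG1 then lay at 0.23, ERCC1 at 0.14, DDB1 at -0.17, ERCC4 at -0.23 and MSH3 at -0.25. LIG3, whose longest transcript has 8400 nucleotides, came to lie above at 0.15, and UNG at -0.13 and NEIL2 at -0.25 below.

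**Figure D4:**
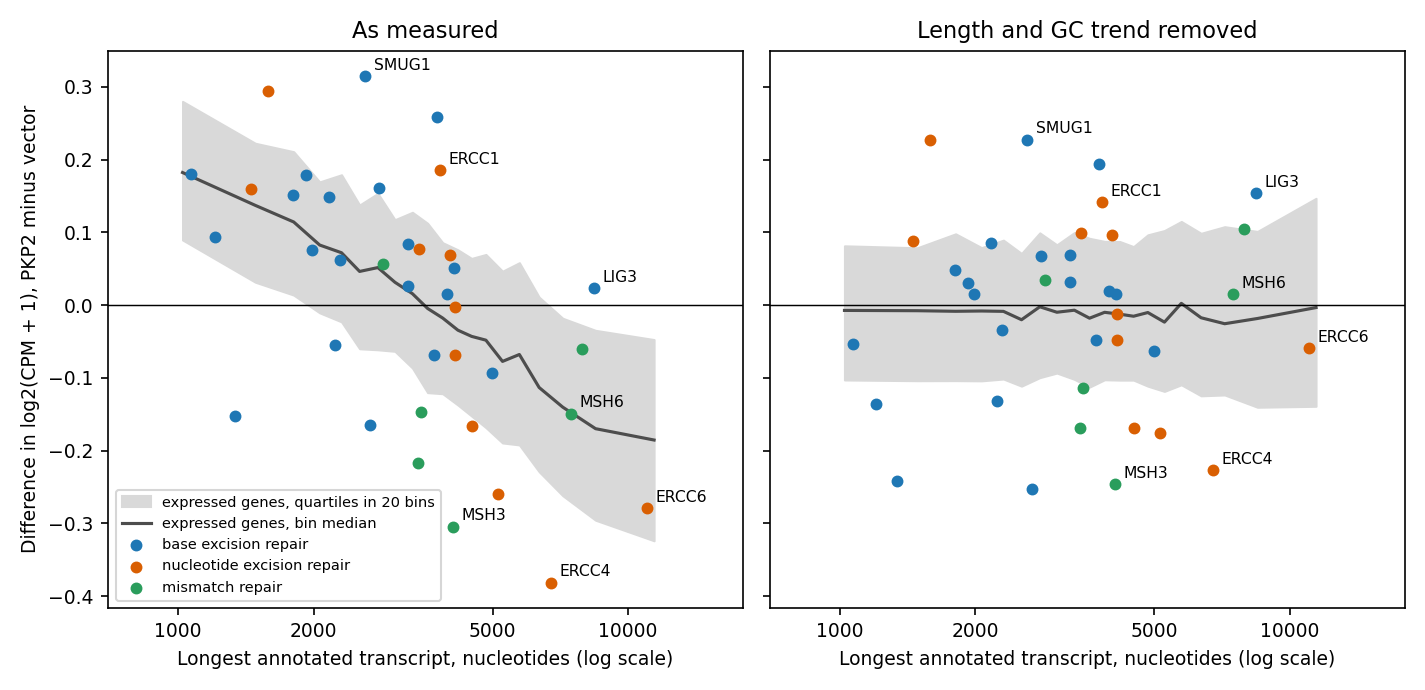
Difference in log2(CPM + 1), PKP2 minus vector library, of the 37 genes against the longest annotated transcript (log axis), as measured on the left and after removal of the trend on length and GC on the right; the line and band are the median and quartiles of expressed genes in 20 bins of equal size. On the left the members follow the downward line from short to long transcripts, and on the right SMUG1 at 0.23 and MSH3 at -0.25 are among the points still away from it.

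Other genes of the same pathways, from lists that hold no member, are given beside the same background of 16.3% of expressed genes with an interval above 1 and 19.8% below. Of 9 further base excision genes, 4 were higher, with a median difference of -0.02, and 1 interval lay above 1 (11.1%) and 1 below (11.1%). PARG, which removes poly(ADP-ribose), was 1.24-fold lower (1.12 to 1.38), at 48.2 CPM with vector and 38.8 with PKP2, and HMGB1 was 1.07-fold higher (1.04 to 1.11), at 440 and 472 CPM with a fractional count. Of 17 further nucleotide excision genes, 10 were higher, with a median of 0.13, and 3 intervals lay above (17.6%) and 3 below (17.6%). CETN3, a paralog of CETN2, was 1.34-fold higher (1.09 to 1.64), at 10.0 and 13.4 CPM, and the TFIIH subunit gene GTF2H3 1.19-fold lower (1.07 to 1.32), at 44.6 and 37.6 CPM. Of 16 genes for gap filling and clamp loading, 11 were higher, with a median of 0.06, and 2 intervals lay above (12.5%) and 2 below (12.5%). RPA2 stood at 55.7 and 61.7 CPM, 1.11-fold higher (1.01 to 1.21). The clamp loader RFC1 stood at 63.7 and 50.9 CPM, 1.25-fold lower (1.14 to 1.37), and the polymerase POLE at 139.4 and 123.0 CPM, 1.13-fold lower (1.07 to 1.202). Of 6 genes for direct reversal and the nucleotide pool, 5 were higher, against 49.7% of all expressed genes, with a median of 0.08. NUDT1, which clears oxidised nucleotides, was the 1 with an interval above 1 (16.7%), at 29.6 and 34.7 CPM, 1.17-fold higher (1.04 to 1.32). The other genes with the largest differences in these lists had intervals that include 1. They were PARP3 (0.14), TDP2 (-0.05), UVSSA (-0.28), RBX1 (0.19), RPA3 (0.17), MGMT (0.29) and SAMHD1 (-0.12).

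Several members, among them FEN1, LIG1, EXO1, MSH6 and UNG, are known to peak in S phase. The 22 S phase genes had a median difference of 0.00, with 11 higher and 11 lower, 6 intervals above 1 (27.3%, against 16.3% of expressed genes) and 5 below (22.7%, against 19.8%). Of the break repair pathways, the 12 end-joining genes had a median of -0.08, with 3 intervals above 1 (25%) and 5 below (41.7%). The 21 homologous recombination genes had a median of -0.15, with 1 above (4.76%) and 9 below (42.9%). Once the length and GC trend was taken out, these medians were -0.07 and -0.05, beside 0.02 over the 37 excision and mismatch repair genes. The difference between these lists was not tested.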

How the data were processed

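RNA sequencing of A549 cells gave 1 library with empty vector and 1 with SFB-tagged PKP2. The deposited values are estimated counts per gene, listed by Entrez ID, called counts per the file headers. The submitters' processing notes list HISAT2 2.0.4, Bowtie2, RSEM 1.2.12 and the build GRCh38.p12, with no role for each. What strand setting, annotation and filters applied is not given in the sources used here. Of the 37 members, 7 had a fractional count, as a counter that divides shared reads gives. In GENCODE release 29, exons of 21 overlap an exon of another gene on the opposite strand. Exons of 6, SMUG1 and XRCC1 among them, overlap one on the same strand. Such counts are uncertain.

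CPM were computed from the library totals. Genes from 1 CPM upwards in either library counted as expressed. Folds of 1.2 and 1.5 were set on log2(CPM + 1). Counts were rounded only for intervals, which cover counting error only. Symbols came from RefSeq, coordinates, length and GC of the longest transcript from GENCODE. The trend is an additive lowess (span 0.3, statsmodels 0.14.6) on log2 length and GC. Calculations were tested on simulated counts with Poisson error only, with no trend or a trend on length. Variation between libraries and a trend on GC were not simulated. Alternatives were pseudocounts, filters, scalings, trend removal and leaving out fractional counts.

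The members and lists were chosen with earlier results of these data known. LIG1, LIG3 and the members with the largest differences in each pathway (6, 5 and 3, at a mean of 1 CPM or more) were to be given in full, and beyond the members PKP2, LIG4, the readthrough genes and up to 2 genes a direction from each further list. BIVM was chosen after values were seen.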

Additional observations from a re-analysis of the deposited data

How the results depend on the processing

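Each of the 37 genes was recomputed under 5 alternatives. With the length and GC trend removed 5 changed sign, of which MSH6, to 0.015, was the 1 whose interval had excluded 1, and 5 moved by more than the half-width of their interval without such a reversal. ERCC5 summed with BIVM-ERCC5 changed sign, to 0.11, with a log2 interval of -0.07 to 0.28. No gene moved so far or changed sign under another pseudocount or scaling. With the median log ratio set to 0 the interval of EXO1 reached 1 and that of XPA lay above it, for 6 above and 7 below. Before that shift 16.3% of expressed genes lay above and 19.8% below. The scaling shifts were 0.00 on the log2 scale.

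With the trend removed the median was 0.018 in base excision and -0.050 in mismatch repair. Then 3 members instead of 5 had an interval above and 5 instead of 8 below, beside 11.5% and 15.3% of expressed genes. Without fractional counts 5 of 30 members lay below, beside 19.8% of expressed genes with such counts kept. The nucleotide excision median was then 0.069, as it was with ERCC5 summed with BIVM-ERCC5. That sum moved the median of all members to 0.051. PKP2 lay at 3.08 instead of 3.25 with a pseudocount of 5.

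The background counts followed the pseudocount and filter. By the mark of 1.2-fold 1115 genes lay higher and 1412 lower, against 459 and 861 with a pseudocount of 5, 704 higher at a mean of 5 CPM or more, and 841 lower with the trend removed. At 1.5-fold 94 were higher and 101 lower, against 249 and 206 with a pseudocount of 0.1, 19 and 20 with a pseudocount of 5, and 31 and 50 at a mean of 5 CPM or more. The causes were not tested.

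With 1 library a group, leaving out a library was not done. No paired analysis was possible because each group has 1 library and the labels carry no replicate numbers. Depth limits the members under 500 counts, 15 of the 37 in the vector library, to intervals of 1.14-fold or more to each side.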
